A study of Homo sapiens with 4 samples.

Results

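The EGF-family ligands and the neuregulins are the secreted or membrane-tethered proteins that bind the receptors of the ERBB family. The 10 genes described here were EGF, TGFA, AREG, EPGN, EREG, HBEGF, BTC, NRG1, NRG2 and NRG4, chosen as the known members of the family, and they were measured by every probe whose RefSeq accession belongs to one of them. These were 10 of 16419 named genes and 17 of the 41000 probes on the array, and 5 of the 10 genes had more than 1 probe. NRG3, the remaining neuregulin gene, had no probe named here.

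Gene expression was measured in 2 breast cancer cell lines with amplified HER2, SkBr3 and BT474, and in 1 lapatinib-resistant clone of each. Lapatinib is a kinase inhibitor of EGFR and HER2. The clones were selected by raising the drug stepwise to 1 μM, and the parental cells were labelled as given vehicle. All cells grew in DMEM/F12 with serum. The paper calls the clones SkBr3/Lap#6 and BT474/Lap#3, whereas the sample labels number them the other way round, so they are called SkBr3/Lap and BT474/Lap here. Each of the 4 conditions was 1 array, with 1 clone standing for resistance in each line, so neither clone could be tested against its parent by itself, and clone, drug and array cannot be told apart. Both lines together give 2 pairs, and the test over these pairs is given where EGF and AREG are compared. The other 3 arrays shared a slide that did not hold the SkBr3/Lap array, so in the SkBr3 pair slide and clone cannot be told apart either.

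These ligands are made as membrane-anchored precursors, and metalloproteases and other proteases release most of them. EGF, TGFA, AREG (amphiregulin) and EPGN (epigen) bind EGFR, EREG (epiregulin), HBEGF (heparin-binding EGF-like growth factor) and BTC (betacellulin) bind EGFR and ERBB4, and the neuregulins bind ERBB3 or ERBB4. No ligand is known for ERBB2, the product of the HER2 gene, which acts as the partner of the other receptors. In HER2-amplified breast cancer cells, ligand-driven signaling through EGFR and ERBB3 is a known route around HER2 inhibitors.

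A signal below is the processed signal of a probe in arbitrary units, and levels of different genes are not compared because probes differ in brightness. A fold change is the difference in log2 signal after the 75th percentile of each array was subtracted. This percentile was 1115 in SkBr3 against 2074 in SkBr3/Lap, and 1158 in BT474 against 1681 in BT474/Lap, so scaling lowered each log2 fold change by 0.90 in the SkBr3 pair and by 0.54 in the BT474 pair. The error after ± is the one the scanner software estimated for the 2 signals, and it leaves out the spread between cultures and arrays. Where the software's flag put 1 of the 2 signals not well above background, the fold change is a limit ("at least"), set with the lowest signal marked well above background on that array. No fold change is given where both signals were dim or the limit was under 1. On all 4 arrays 5 of the 17 ligand probes were well above background, and 4 probes were so on none. A signal of at least 100 on any array was reached by 7 probes, of 6 genes (EGF, TGFA, AREG, EPGN, HBEGF and BTC), and the other 4 genes were below it. Those 6 genes are counted below, and the dimmer 4 are described by their values.

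The sequences before the transcription starts of AREG, EPGN and EREG are shown because these genes are neighbors that share a TATA motif. AREG was lower in the clone than in its parent, unlike EPGN in the SkBr3 pair and EREG in the BT474 pair. EPGN and EREG could not be compared with each other, as neither pair gave both a fold change. RefSeq (GRCh38.p14) gave 11 promoters for 9 of the 10 genes, and NRG1 is the gene without one. Each run is the 250 bases upstream of the start, on the + strand, at chr4:74444886-74445135 for AREG, chr4:74308220-74308469 for EPGN and chr4:74364895-74365144 for EREG. Capitals mark the TATA motif in all 3 and, in AREG, a cyclic AMP response element (CRE) motif before it.
AREG: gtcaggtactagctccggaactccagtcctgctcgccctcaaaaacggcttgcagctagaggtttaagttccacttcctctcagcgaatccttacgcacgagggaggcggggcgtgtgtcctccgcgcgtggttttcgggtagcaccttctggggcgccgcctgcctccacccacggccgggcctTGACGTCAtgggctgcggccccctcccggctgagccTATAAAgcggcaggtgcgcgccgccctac
EPGN: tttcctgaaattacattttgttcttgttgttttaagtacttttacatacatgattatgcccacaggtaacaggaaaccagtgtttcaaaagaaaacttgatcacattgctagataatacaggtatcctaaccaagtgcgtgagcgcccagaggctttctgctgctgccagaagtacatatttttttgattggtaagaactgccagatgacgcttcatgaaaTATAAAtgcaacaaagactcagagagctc
EREG: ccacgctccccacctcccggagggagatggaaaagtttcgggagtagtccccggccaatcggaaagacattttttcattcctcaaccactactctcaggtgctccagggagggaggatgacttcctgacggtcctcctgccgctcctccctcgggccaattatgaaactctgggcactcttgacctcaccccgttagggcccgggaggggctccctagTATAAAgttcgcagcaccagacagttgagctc

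The TATA motif (TATAAA; all motifs were searched on both strands) began 29 bases before the start of AREG and of EPGN, and 32 bases before that of EREG. Together with NRG4, in which it began 8 bases before the start, it was found in 4 of the 11 ligand promoters, and 10.72% of 35116 promoters of the same length held it. The CRE motif (TGACGTCA) lay at -65 to -58 in AREG and in no other ligand promoter, and 1.646% of all promoters held it. The AP-1 motif (TGANTCA) was found in EGF alone, at -17 to -11, against 6.573% of all promoters. The NF-κB consensus was found at 1 start of TGFA and at 2 places in BTC, against 9.961% of all promoters. None of these motifs overlapped another, and none was found in HBEGF or NRG2.

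In SkBr3/Lap, EPGN and HBEGF were higher and EGF, AREG and BTC were lower than in SkBr3, by 4.46-fold to 9.25-fold. All 5 ligand genes measured there thus differed by at least 2-fold. EPGN and HBEGF, however, reached the signal needed to be counted only in SkBr3/Lap. The filter therefore favored finding these genes higher there, and the count of 5 is not independent of it. In BT474/Lap, EGF and AREG were lower than in BT474 and TGFA, HBEGF and BTC differed by less than 2-fold. The share of all named genes that were at least 2-fold higher in SkBr3/Lap was 13.8% and the share lower was 13.3%, whereas for BT474/Lap these were 8.81% and 5.26%. The median log2 fold change over the measured ligand genes was -2.16 (SkBr3 clone) and 0.00 (BT474 clone), beside -0.05 and -0.08 over all named genes. EGF and AREG were lower in both clones, as were 1.27% of the genes measured in both. Over the 2 pairs, limma with cell line as a block gave a mean log2 difference of -1.88 ± 0.46 (SE) for EGF and -1.96 ± 0.39 for AREG, and with Benjamini-Hochberg adjustment over 10936 genes neither passed a threshold of 0.05 (adjusted p = 0.9988 for both in limma). This fit had 1 residual degree of freedom and called 0 genes. An unadjusted limma p under 0.05 was reached by 441 genes, a smaller share of the 10936 than 0.05, EGF and AREG among them. These 2 genes had been singled out for being lower in the same pairs, so their unadjusted p is no separate support. On unscaled levels the same limma model called 0 genes, and 1060 had an unadjusted p under 0.05, a larger share than 0.05. AREG and HBEGF were among those, and EGF was not. In BT474/Lap 1046 named genes were higher and 625 lower, but 840 and 995 with the median in place of the percentile. In SkBr3/Lap 1636 were higher and 1578 lower, but 4935 (41.6%) and 602 (5.07%) without scaling. Without scaling the median of all named genes was 0.84 and 0.46 in the SkBr3 and BT474 pairs, and that of the ligands -1.26 and 0.54.

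**Figure D1:**
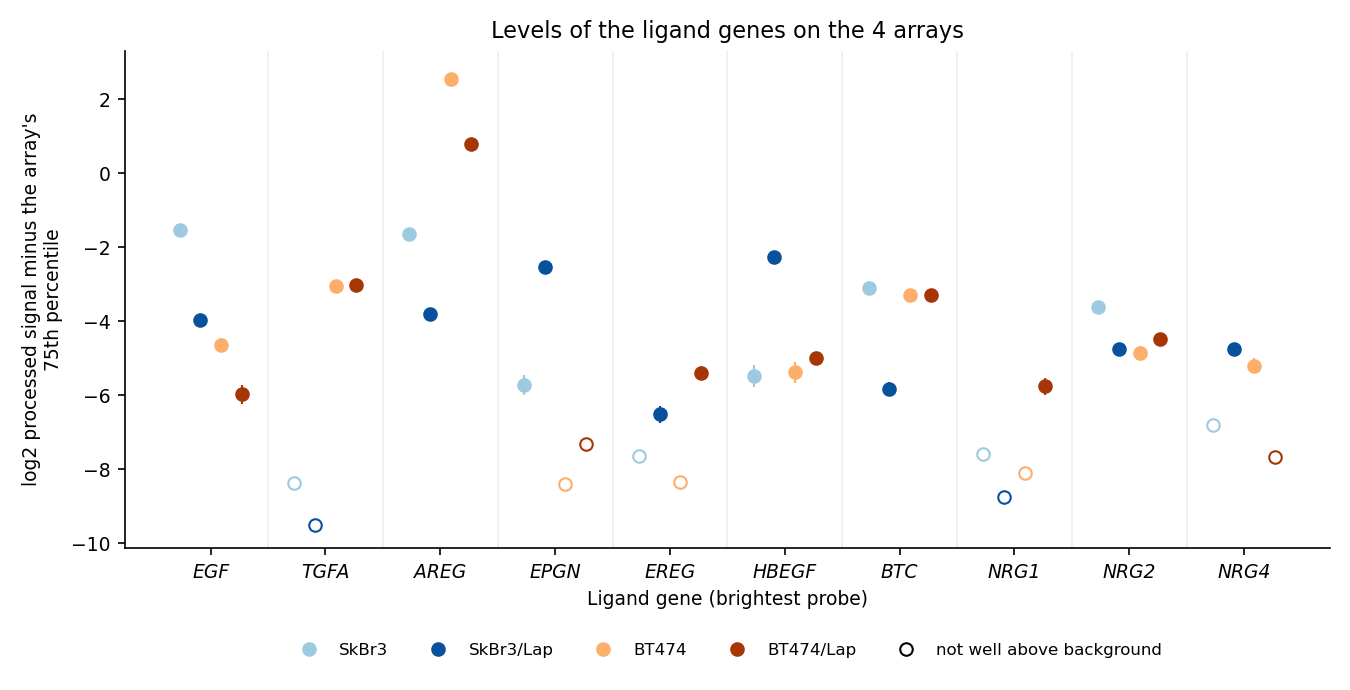
Level of the brightest probe of each ligand gene on the 4 arrays, as log2 processed signal minus the 75th percentile of the array (1 array per condition). Bars, often smaller than the points, are the error the scanner software estimated, and open points were not well above background. AREG spans 6.37 log2 units, from -3.81 in SkBr3/Lap to 2.55 in BT474.

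Among the ligands of EGFR alone, EGF was measured by probe A_23_P155979. EGF is the founding member of the family. Its signal was 382 in SkBr3 against 133 in SkBr3/Lap, and 46.5 in BT474 against 26.8 in BT474/Lap, and all 4 were well above background. Each clone was below its parent, and both SkBr3 arrays were above both BT474 arrays. The log2 fold change was -2.42 ± 0.21 in SkBr3/Lap (5.35-fold lower) and -1.33 ± 0.33 in BT474/Lap (2.52-fold lower). In BT474/Lap the difference was under 2-fold without scaling (-0.80) and after normexp background correction and quantile normalization (-0.59).

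AREG, which epithelial cells release for signaling to themselves and to neighboring cells, had the widest range of the probes well above background on all arrays (A_23_P259071). Its signal was 354 in SkBr3 against 148 in SkBr3/Lap, and 6802 in BT474 against 2927 in BT474/Lap. Both BT474 arrays were far above both SkBr3 arrays, and within each line the clone was lower. The log2 fold change was -2.16 ± 0.21 in SkBr3/Lap (4.46-fold lower) and -1.75 ± 0.20 in BT474/Lap (3.37-fold lower). Without scaling the 2 differences were nearly equal, at -1.26 and -1.22. RefSeq lists AREGB, an older name for a near-identical copy, among the synonyms of AREG, and whether the probe tells such copies apart was not tested.

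TGFA encodes transforming growth factor alpha, the close relative of EGF. Its probe (A_23_P377291) was not well above background in SkBr3 (3.36) and SkBr3/Lap (2.84), whereas it read 141 in BT474 and 207 in BT474/Lap. The signal was thus found in 1 of the 2 lines, and the log2 fold change of the BT474 clone was 0.02 ± 0.21, or 0.56 without scaling.

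EPGN, the most recently found of the EGFR ligands, showed the opposite pattern. Its probe (A_24_P205994) read 21.3 in SkBr3 and 358 in SkBr3/Lap, and was not well above background in BT474 (3.47) and BT474/Lap (10.6). The SkBr3 clone stood apart from the other 3 arrays. Its log2 fold change was 3.18 ± 0.31 (9.04-fold higher).

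Among the ligands of EGFR and ERBB4, HBEGF had 2 probes. The first (A_23_P213944) read 25.1 in SkBr3 against 431 in SkBr3/Lap, and 27.8 in BT474 against 52.6 in BT474/Lap. The second (A_24_P140608) read 21.2 in SkBr3 and 706 in SkBr3/Lap, and was not well above background in BT474 (8.15) and BT474/Lap (14.5). By both probes SkBr3/Lap was the highest array. The log2 fold change in SkBr3/Lap was 3.21 ± 0.33 (9.25-fold higher) by the first probe and 4.16 ± 0.30 (17.9-fold higher) by the second. Over 3777 genes with more than 1 probe, the range of this fold change among the probes of a gene had a median of 0.29. In BT474/Lap the first probe gave 0.38 ± 0.34.

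BTC also had 2 probes. The first (A_23_P135722) read 130.0 in SkBr3 against 36.4 in SkBr3/Lap, and 119 in BT474 against 173 in BT474/Lap, so SkBr3/Lap was the only low array. Its log2 fold change was -2.73 ± 0.24 in SkBr3/Lap (6.64-fold lower) and 0.00 ± 0.21 in BT474/Lap. The dimmer second probe (A_32_P865613) read 16.6 in SkBr3, 19.9 in BT474 and 19.9 in BT474/Lap, and in SkBr3/Lap (11.8) it was not well above background, hence at least 2.33-fold lower, although the unscaled log2 difference was -0.50. In BT474/Lap this probe gave -0.54 ± 0.38.

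EREG was seen in both clones and in neither parent, near the detection limit. Its probe A_23_P41344 read 22.7 in SkBr3/Lap and 40.2 in BT474/Lap, whereas SkBr3 (5.59) and BT474 (3.61) were not well above background. The limit was at least 1.73-fold higher in BT474/Lap and was under 1 in SkBr3/Lap, so 2-fold was not shown in either clone and a larger difference is possible. The second probe (A_24_P217520) was dim on all 4 arrays, between 2.72 and 3.34.

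The neuregulins were dim throughout, and none reached a signal of 100. NRG1, which encodes heregulin, the main ligand of ERBB3, had 4 probes. Of these, A_23_P136493 and A_23_P315815 were well above background in BT474/Lap alone, where they read 31.1 and 38.5. On the other 3 arrays the first read 4.22 to 5.83 and the second 2.84 to 3.59. BT474/Lap was at least 1.34-fold and at least 1.66-fold higher than BT474 by these probes, limits that leave the size of the difference unknown. The other NRG1 probes were not well above background on any array, with highest readings of 14.5 and 6.57, both in BT474/Lap.

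NRG2, a ligand of ERBB3 and ERBB4, read 91.8 in SkBr3 against 76.5 in SkBr3/Lap, and 40.0 in BT474 against 75.8 in BT474/Lap by probe A_23_P213699, which was well above background on all 4. SkBr3 was the highest and BT474 the lowest array. The log2 fold change was -1.16 ± 0.22 in SkBr3/Lap, but -0.26 without scaling and -0.48 after normexp and quantile normalization. In BT474/Lap it was 0.39 ± 0.25. The other NRG2 probe was dim on all arrays.

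NRG4, a ligand of ERBB4 alone, differed in opposite directions in the 2 lines. Its probe (A_23_P334727) read 77.9 in SkBr3/Lap and 31.5 in BT474, whereas SkBr3 (10.06) and BT474/Lap (8.26) were not well above background. SkBr3/Lap was at least 2.62-fold higher than SkBr3 and BT474/Lap at least 3.12-fold lower than BT474. With 16 added to each signal the log2 difference in SkBr3/Lap was 0.67, and after normexp and quantile normalization that in BT474/Lap was -0.64, both under 2-fold. The difference between the lines was not tested, and 2.68% of the genes measured in both clones differed by at least 2-fold in opposite directions.

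**Figure D2:**
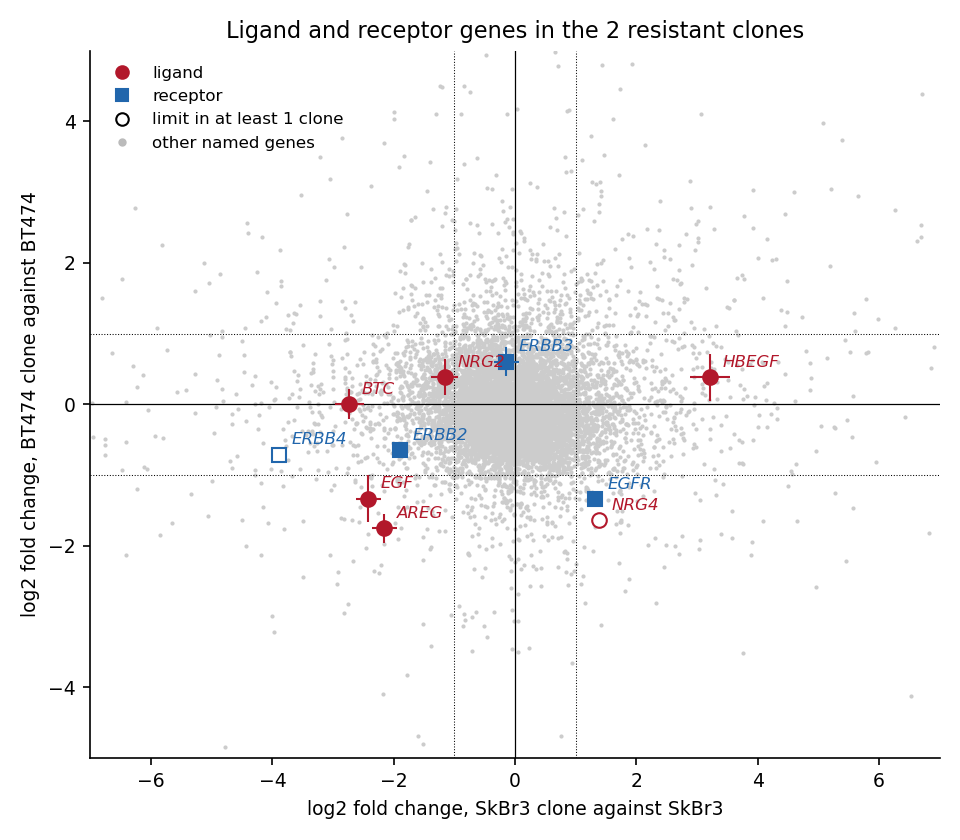
Log2 fold change of each clone against its parent, for SkBr3 on the x axis and BT474 on the y axis (both cut at the ends drawn). Red circles are ligand genes with a value in both clones, including NRG2 and NRG4, which were under a signal of 100, blue squares are the receptors, gray points are other named genes well above background on all 4 arrays, bars are the scanner software's error, open symbols are limits and dotted lines are 2-fold. EGF and AREG lie in the lower left, and HBEGF lies at 3.21 and 0.38.

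EPGN, EREG, AREG and BTC lie next to each other on chromosome 4, in this order and with no other protein-coding gene between them, by the RefSeq order of genes, while the other 6 ligand genes lie elsewhere. In SkBr3/Lap the neighbors differed in opposite directions, with EPGN 9.04-fold higher and AREG and BTC 4.46-fold and 6.64-fold lower. Of the genes on either side, PARM1, beyond BTC, read 16.6 (not well above background) in SkBr3 and 313 in SkBr3/Lap, a log2 difference of at least 3.34. MTHFD2L, beyond EPGN, read 6.96 (not well above background) and 60.4, a limit of 1.02. In BT474/Lap both flanking genes were within 0.09 of BT474 on the log2 scale. Of the cluster, AREG was more than 2-fold lower, BTC differed by less than 2-fold, EREG had a limit of at least 1.73-fold higher, and EPGN could not be compared, being dim on both arrays. The genes beyond PARM1, RCHY1 and THAP6, differed by -0.33 and -0.22 in SkBr3/Lap.

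**Figure D3:**
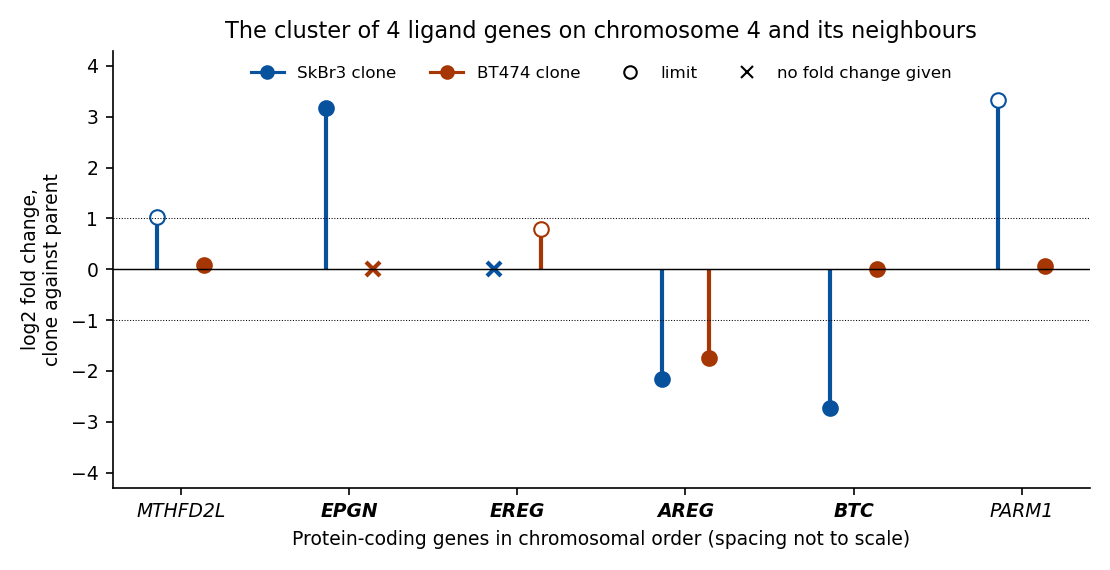
Log2 fold change of each clone against its parent for the 4 ligand genes on chromosome 4 (bold) and the protein-coding gene on either side, in chromosomal order and not to scale. Open points are limits, crosses mark pairs with no fold change given, and dotted lines are 2-fold. In the SkBr3 clone (blue) EPGN is at 3.18, AREG at -2.16 and BTC at -2.73.

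The parental lines differed in which ligands they held. Compared with SkBr3, BT474 had 18.5-fold more AREG signal, at least 8.45-fold more TGFA and 8.53-fold less EGF, while BTC (log2 difference -0.18) and HBEGF (0.10) differed by less than 2-fold. Among all named genes, 19.4% were at least 2-fold higher in BT474 and 19.0% lower. Between the clones, BT474/Lap was above SkBr3/Lap by 24.5-fold in AREG, at least 19.2-fold in TGFA and 5.86-fold in BTC, and below it by 6.65-fold in HBEGF, 4.02-fold in EGF and at least 19.8-fold in EPGN. All 6 genes thus differed by at least 2-fold between the clones, where 23.5% of genes were higher and 24.2% lower in BT474/Lap. Of these ligands, EPGN and HBEGF passed the signal filter only through SkBr3/Lap, and TGFA only through the BT474 arrays. These comparisons share arrays with those of each clone against its parent.

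The 5 genes whose levels over the 4 arrays were most like those of AREG, by Euclidean distance of centered log2 levels over 16393 probes, were FBLIM1 (0.55), FZD4 (0.58), SERPINA1 (0.66), SALL2 (0.72) and CRAT (0.74). FZD4, a Wnt receptor, differed by -1.94 in SkBr3/Lap, by -1.45 in BT474/Lap and by 3.65 between BT474 and SkBr3, all as log2. With 4 arrays such likeness is a description only.

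The receptors showed another split between the lines. EGFR, the receptor of 7 of the 10 ligands, read 2767 in SkBr3 against 12836 in SkBr3/Lap, and 217 in BT474 against 124 in BT474/Lap. The SkBr3 clone was thus 2.49-fold above its parent and the BT474 clone 2.53-fold below, a difference between lines that was not tested. ERBB2 read 238524, 118706, 256346 and 237327 in the same order, log2 fold changes of -1.90 (SkBr3 clone) and -0.65 (BT474 clone). ERBB3 was within 2-fold in both clones (-0.14 and 0.61). By its brightest probe, ERBB4 read 106 in SkBr3 and 2.69, not well above background, in SkBr3/Lap, at least 14.8-fold lower. This probe read 812 and 717 in BT474 and BT474/Lap (-0.72). A dimmer ERBB4 probe (A_23_P423853) was not well above background in SkBr3 (3.41) but was so in SkBr3/Lap (16.8). That signal was near the detection limit, and the pair gave no fold change by this dimmer probe. It read 24.8 in BT474 and 15.6, not well above background, in BT474/Lap, at least 2.31-fold lower. By the brightest probes, 1 receptor gene was higher and 2 were lower in SkBr3/Lap, with a median of -1.02. In BT474/Lap 1 was lower, with a median of -0.68. Of all named genes, 13.8% were higher and 13.3% lower in SkBr3/Lap, and 8.81% and 5.26% in BT474/Lap. EGFR in BT474/Lap was under 2-fold without scaling (-0.80), when ERBB3 was higher (1.14).

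Of 16 genes for the release and processing of ligand precursors, 4 were at least 2-fold higher in SkBr3/Lap (ADAM8, ADAM12, PCSK5 and PCSK6) and 1 was lower (RHBDL2), with a median log2 fold change of 0.35. Among all named genes there, 13.8% were higher and 13.3% lower. In BT474/Lap 2 of 14 measured genes were higher (FURIN and PCSK5) and 1 was lower (PCSK6), with a median of 0.04. Of all named genes, 8.81% were higher and 5.26% lower there. FURIN read 13.5, not well above background, in BT474 and 62.1 in BT474/Lap, at least 2.68-fold higher. ADAM12 in SkBr3/Lap was also a limit, reading 8.73, not well above background, in SkBr3 and 1120 in SkBr3/Lap. That was at least 37.6-fold by the counted probe and at least 1.53-fold by a dimmer one. The counted PCSK6 probe read 40.9 in BT474 and 24.8 in BT474/Lap. Another PCSK6 probe, well above background on all 4 arrays, read 48.8 and 45.5, a log2 fold change of -0.64. After normexp and quantile normalization 1 gene of the list was higher and 0 lower in BT474/Lap. PCSK5, a proprotein convertase, was higher in both clones, reading 58.4 and 707 in the SkBr3 pair and 37.1 and 202 in the BT474 pair (2.70 and 1.91 as log2), as were 2.58% of the genes measured in both. Without scaling 9 genes of the list were higher and 0 lower in SkBr3/Lap, where 41.6% and 5.07% of all named genes were. By their counted probes, RHBDL2 there (-0.89) and PCSK6 in BT474/Lap (-0.72) were then less than 2-fold lower. The other RHBDL2 probes stayed more than 2-fold lower in SkBr3/Lap without scaling, at -1.22 and -1.21. The main sheddases, ADAM17 (-0.04 and -0.06) and ADAM10 (0.05 and -0.16), were within 2-fold in both clones. These 2, chosen after their values were seen, release AREG, EREG, TGFA and HBEGF, and EGF and BTC, respectively.

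Among 16 genes induced by ERK signaling downstream of the receptors, 14 could be counted. In SkBr3/Lap 4 were higher (DUSP5, DUSP6, SPRY2 and PHLDA1) and 3 lower (SPRY4, EGR1 and EMP1), with a median log2 fold change of 0.31. In BT474/Lap 1 was higher (IER3) and 7 were lower (DUSP4, DUSP6, SPRY1, SPRY4, SPRED1, ETV4 and EGR1), with a median of -1.43, which was -0.89 without scaling. Of all named genes, 13.8% were higher and 13.3% lower in SkBr3/Lap, and 8.81% and 5.26% in BT474/Lap. Without scaling 8 genes of the list were higher and 3 lower in SkBr3/Lap, beside the 41.6% and 5.07% of all named genes. With scaling, the counted PHLDA1 probe gave 4.54 as log2 in SkBr3/Lap, and others gave 3.50 and at least 2.04. A further PHLDA1 probe (A_23_P338912), reading 85.7 in SkBr3 and 191 in SkBr3/Lap, gave only 0.26. ETV4 in SkBr3/Lap was at 0.82 by the counted probe and at 1.53, past 2-fold, by another. Like EGF and AREG, EGR1, an immediate early transcription factor, and SPRY4, a feedback inhibitor, were lower in both clones. EGR1 read 1374 in SkBr3 against 362 in SkBr3/Lap, and 532 in BT474 against 99.3 in BT474/Lap (log2 fold changes -2.82 and -2.96). SPRY4 read 144, 70.0, 113 and 44 in the same order (-1.93 and -1.90, and without scaling -1.04 and -1.36).

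As a check of the cells, keratin genes KRT8, KRT18 and KRT19 and the HER2 amplicon genes ERBB2, GRB7 and STARD3 were well above background on all 4 arrays, while CDH1 was dim in both SkBr3 arrays (11.9 and 4.66). Of 4 fibroblast markers, 1 was above background on 1 array, PDGFRB in SkBr3/Lap (64.8). Of the 5 leukocyte markers 2 to 4 were above background per array, with PTPRC dim on all. Of the 4 endothelial markers 1 to 3 were, with KDR dim on all. Like EPGN and HBEGF, PECAM1 was higher in SkBr3/Lap (160 against 3.43, not well above background, in SkBr3), as was CDH5 (915 against 58.4). PECAM1 was also at least 2.38-fold higher in BT474/Lap (55.2 against 3.32, not well above background, in BT474). By its brightest probe, VWF was within 2-fold in SkBr3/Lap (0.53 as log2) and 2.18-fold lower in BT474/Lap (594 against 892 in BT474). A dimmer VWF probe went the other way in both. It read 25.7 in SkBr3 and 14.9 in SkBr3/Lap (-1.69 as log2, -0.79 without scaling). In BT474/Lap it read 24.2 against 3.29, not well above background, in BT474, at least 1.05-fold higher. The summed scaled level of the endothelial list was 0.173 in SkBr3 against 0.675 in SkBr3/Lap, and 0.785 in BT474 against 0.395 in BT474/Lap, and the part of such genes in the ligand results was not tested.

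**Figure D4:**
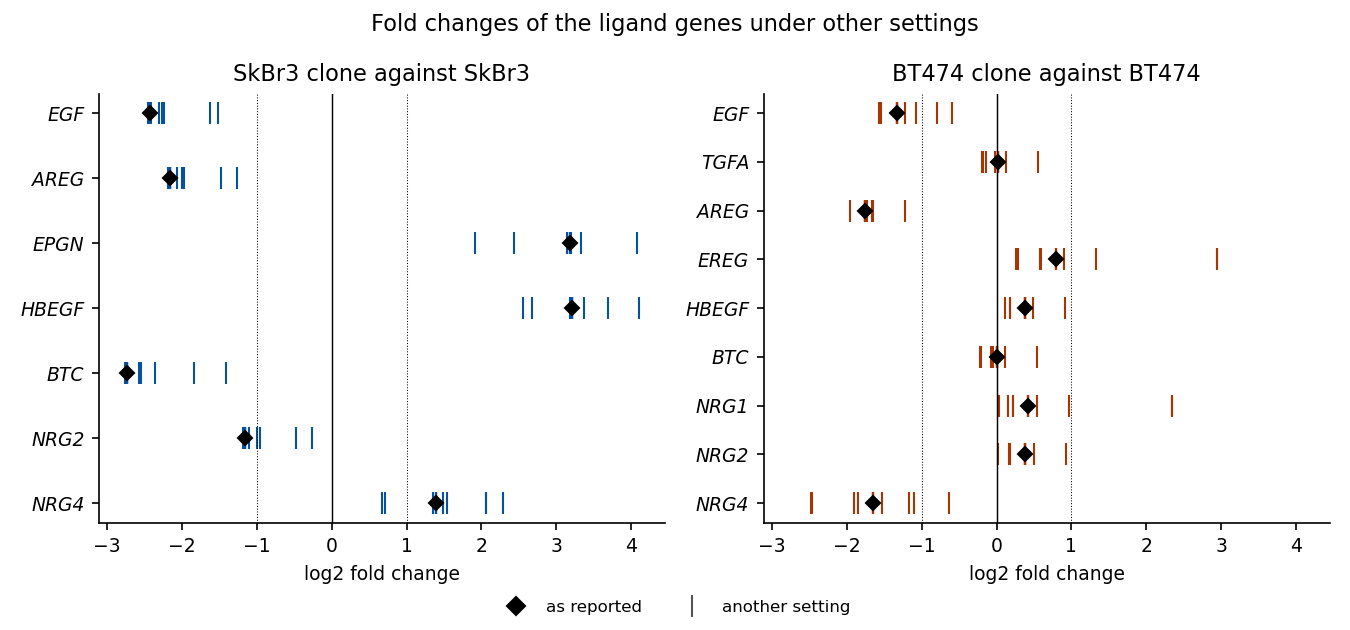
Log2 fold change of each ligand gene in each clone as reported (black diamonds) and under each other setting (colored ticks), among them another scaling, background correction, filter or summary of probes. Dotted lines are 2-fold. In the SkBr3 clone AREG ranges from -2.19 to -1.26 and HBEGF from 2.56 to 4.11.

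The 5 ligand genes at least 2-fold changed in SkBr3/Lap were past 2-fold under each setting that gave them a value. With normexp and quantile normalization they were at -1.63 (EGF), -1.48 (AREG), -1.40 (BTC), 1.92 (EPGN) and 2.67 (HBEGF). AREG in BT474/Lap ranged from -1.96 to -1.22.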

How the data were processed

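Total RNA from the 4 cell populations was labeled with Cy3 and hybridized to Agilent 4 × 44 K arrays, 1 per population. The authors deposited for each spot the intensity that Feature Extraction 10.1.1.1 (per the file headers) reports as processed signal, from which background and spatial trend were removed, with its error, median pixel intensities and flags. The methods of the study name an earlier version, Cy3 or Cy5 and LOWESS normalization. The authors also deposited a log2 table whose scale and centering are not stated, with column medians of 0.12, -0.20, 0.11 and -0.05 for SkBr3, SkBr3/Lap, BT474 and BT474/Lap. Over the ligand probes, clone minus parent in this table and in the processed signals differed by at most 0.0007.

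Each probe was given the mean log2 processed signal of its spots, less the 75th percentile of its array over the 41000 non-control probes. Between 66.6% and 74.0% of probes were well above background per array, meaning at least 50% of their spots were so flagged, no spot was saturated, and the lowest such signal was 13.3 to 16.0. Probes spotted 10 times had a median SD of 0.06 to 0.07. RefSeq accessions (GRCh38.p14, used for names and gene order, as the arrays were designed on another build) named 23675 probes and 16419 genes, of which 12156 had a probe with a signal of at least 100 on at least 1 array. A gene was represented by its brightest such probe, and at least 2-fold counted as changed. Named are all ligand genes and probes, the 4 receptors, genes of the other lists changed the same way in both clones, and the 5 genes most like the widest-ranging ligand probe. The members of the counts and marker genes are named besides, after their values were seen. The members and lists were chosen with earlier results of these data known. With 1 array per condition, a clone could not be tested against its parent within a line, and the number of arrays limits the precision. The effect of resistance over both lines was tested in limma on the 10936 genes well above background on all 4 arrays, with cell line as a block and without one, chosen after seeing the data. Each model was fitted on scaled and on unscaled levels. Motifs were searched in the RefSeq promoters on both strands. The scripts were tested on simulated data. Python 3.11.15, numpy 2.4.6, pandas 2.3.3, R 4.3.3 and limma 3.58.1 were used. The other settings tried were 3 other scalings (percentile over probes well above background, median, quantile), normexp with quantile normalization, the deposited log2 table, 16 added before log2, no signal filter, a filter on all 4 arrays, no lower bound on dim signals, outlier or dim spots left out, a 3-fold threshold, the mean over probes and, chosen after seeing the data, no scaling.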

Additional observations from a re-analysis of the deposited data

Results flagged for a closer look

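NRG4 moved in opposite directions in the 2 lines, with log2 limits of 1.39 (SkBr3 clone) and -1.64 (BT474 clone). EGFR did so as well, at 1.32 and -1.34. Each condition was 1 array, so the difference between the lines was not tested for either gene. Among the genes measured in both clones, 2.68% differed by at least 2-fold in opposite directions. NRG4 was under a signal of 100 on all 4 arrays, so it is not among the genes of that share.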

How the results depend on the processing

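The replicate numbers pair no arrays, since each condition is 1 array, and no array could be left out. The clones and parents pair by cell line, and the count of ligand genes lower in both clones, 2 by the 2-fold rule, was 0 in limma with cell line as a block and 0 without a block, and 1 (AREG) after normexp and quantile normalization, 1 with a 3-fold threshold and 1 without scaling. With the block, HBEGF (1.80 ± 0.79, SE) and BTC (-1.36 ± 0.77) had the same adjusted p of 0.9988 as EGF and AREG. Under the other settings that could move a fold change, no called change turned its direction, and the sign differed from that reported for TGFA and BTC in BT474/Lap, which ranged from -0.20 to 0.56 and from -0.22 to 0.54. The count of ligand genes lower in BT474/Lap was 2 as reported and 1 (AREG) after normexp and quantile normalization, 1 with a 3-fold threshold and 1 without scaling, a setting added after seeing the data. The count higher in SkBr3/Lap was 2 and was 1 (HBEGF) when probes had to be well above background on all 4 arrays, since EPGN was dim in BT474. With no signal filter NRG4 was added to both, giving 3 higher in SkBr3/Lap and 3 lower in BT474/Lap. The count lower in SkBr3/Lap was 3, or 4 with NRG2 where the signal filter was dropped or replaced by that on background, and the count higher in BT474/Lap was 0 under each setting. Scaling matters for the dim probes, as those not well above background on both arrays of a pair had a median log2 difference of -1.17 in SkBr3 and -0.64 in BT474. EREG in BT474/Lap ranged from 0.27 to 2.94 and NRG1 from 0.03 to 2.34, the highest values being those with no lower bound on dim signals.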
